A study of Mus musculus with 7 samples.

Results

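Plasmacytoid dendritic cells (pDCs) are rare blood-derived cells of spleen and lymph nodes that sense viral nucleic acids through endosomal Toll-like receptors and answer with type I interferon. A set of 7 genes known from mouse pDCs was followed in spleen RNA sequencing counts: the surface receptors Siglech and Ccr9, the transcription factor genes Tcf4, Runx2 and Spib, and the 2 enzyme-related genes Klk1 and Cox6a2. The list was given as gene symbols, and all 7 symbols were found among the 55414 genes of the count table. Libraries of polyadenylated RNA came from whole spleens of WT mice (genotype given as C57BL/6N, n = 3) and of mice labelled Fpr2KO (n = 4), which lack the formyl peptide receptor gene Fpr2. Age, sex, the background of the knockout and how the deletion was made are not given in the sources used here, and neither group is described as treated. The question the design addresses is what loss of Fpr2 does to spleen transcripts.

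The fate of a pDC is set by Tcf4, an E protein that binds E-box DNA and keeps the pDC programme on, and is opposed by inhibitor of DNA binding (Id) proteins. Spib, an Ets family factor, and Runx2, a Runt domain factor, work with it in pDC development and in the exit of mature pDCs from bone marrow. Siglech encodes a sialic acid-binding lectin that signals through the adaptor DAP12 and is a known marker of mouse pDCs. Whether its reads in whole spleen came from pDCs alone was not tested. Several of the others are shared with further cells: Spib with B cells, Ccr9 with T cells, Tcf4 with B, stromal and endothelial cells, Klk1 with exocrine glands, and Cox6a2 with striated muscle.

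Promoter letters were read for the 2 surface receptors, because the members include factors of the families that bind the marked motifs. Each run holds the 250 bases before the RefSeq start on the GRCm38.p6 build, 5′ to 3′ on the gene's strand. Capitals mark the E-box CANNTG (E proteins), the Ets core GGAA and the Runt site TGTGGT, the last 2 on either strand. Siglech lies on the plus strand (chr7:55767934-55768183) and Ccr9 on the plus strand (chr9:123766961-123767210).
Siglech: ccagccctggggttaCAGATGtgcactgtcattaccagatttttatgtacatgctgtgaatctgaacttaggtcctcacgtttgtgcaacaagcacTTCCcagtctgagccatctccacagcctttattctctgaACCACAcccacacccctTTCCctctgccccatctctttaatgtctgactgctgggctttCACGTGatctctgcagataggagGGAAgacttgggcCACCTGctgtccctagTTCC
Ccr9: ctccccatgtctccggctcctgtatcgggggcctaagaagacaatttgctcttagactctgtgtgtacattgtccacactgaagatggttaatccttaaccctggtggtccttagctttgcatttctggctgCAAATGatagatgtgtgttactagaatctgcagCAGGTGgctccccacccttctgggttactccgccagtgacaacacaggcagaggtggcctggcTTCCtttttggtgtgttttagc
The Siglech run held 3 E-boxes, 4 Ets cores and 1 Runt site, and no marked motifs overlapped. Ccr9 had 2 E-boxes, 1 Ets core and no Runt site. Of the 5 members with an entry used here, Klk1 and Spib had 2 E-boxes each and Runx2 had 1, in which a Runt site overlapped the E-box. An E-box was present in 66.2% of 32851 promoter windows of this length, an Ets core in 93.4% and a Runt site in 14%, so a match is only a description of the letters.

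Reads of Klk1 need a second look at sequence, since the gene sits in a cluster of close copies on chromosome 7. The first 60 coding bases of Klk1 are shown with those of the copy most like it (Klk1b4, 88.7% identity over the coding sequence) and with Klk1b27 (84.3%), the copy with the most reads in these spleens. Positions count from the start codon, and capitals mark letters that differ from Klk1.
Klk1: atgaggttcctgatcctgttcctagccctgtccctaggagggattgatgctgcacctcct
Klk1b4: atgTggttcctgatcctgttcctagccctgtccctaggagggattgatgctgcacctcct
Klk1b27: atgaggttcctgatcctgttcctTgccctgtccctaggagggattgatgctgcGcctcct
Klk1b4 differed from Klk1 at 1 of these 60 bases and Klk1b27 at 2. In the longest Klk1 coding transcript, 28.4% of all 50-base windows also occurred in a transcript of another gene, against 8.15% for Runx2, 3.33% for Cox6a2, 1.15% for Siglech, 0.329% for Spib, 0.214% for Ccr9 and 0 for Tcf4. The copy that held the most of these Klk1 windows was Klk1b5, with 18.8%. Klk1b5 had 4 reads in Fpr2KO replicate 1, 3 in Fpr2KO replicate 2 and none in the other libraries. Counts of Klk1 are therefore uncertain in the sense that shared reads could have been given to a copy or dropped. Together the 13 Klk1b copies held between 7 and 32 reads per library, and 5 of them had none in any library.

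Library totals ran from 14968605 to 18692809 counts. For Fpr2 itself, WT libraries held 477 to 537 reads and every Fpr2KO library held 0, matching the labels. Neutrophil markers summed to between 3689 and 4700 CPM (the read count per 1e6 counts of TMM-scaled library size) in WT and to between 1415 and 2783 in Fpr2KO. Erythroid markers ranged from 10149 to 92645 CPM over all libraries, with S100a9 and Hbb-bs the most abundant genes of the 2 lists. A list of 20 pancreatic acinar genes was high in Fpr2KO replicates 1 and 2, as described with Klk1 below. In a bulk sample, fewer cells of a type and less RNA per cell cannot be told apart.

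None of the 7 genes passed edgeR's test between Fpr2KO and WT at an adjusted p under 0.05. Of all 16089 genes tested, 6 passed, which is 0.0373%. With DESeq2, 0 of the 7 passed, against 0.355% of all genes with an adjusted p. At an unadjusted p under 0.05 there was 1 of 7, Klk1, and it was higher; over all genes the share was 4.98%, made up of 1.91% higher and 3.07% lower. The fitted level was higher in Fpr2KO for 6 of the 7 and lower for Siglech, with a median log2 fold change of 0.13. Over all genes 7819 were fitted higher and 8270 lower, with a median of -0.0049. Groups did not overlap for 1 of the 7, again Klk1, and for 5.91% of all genes, 2.73% with Fpr2KO higher and 3.18% with it lower.

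**Figure D1:**
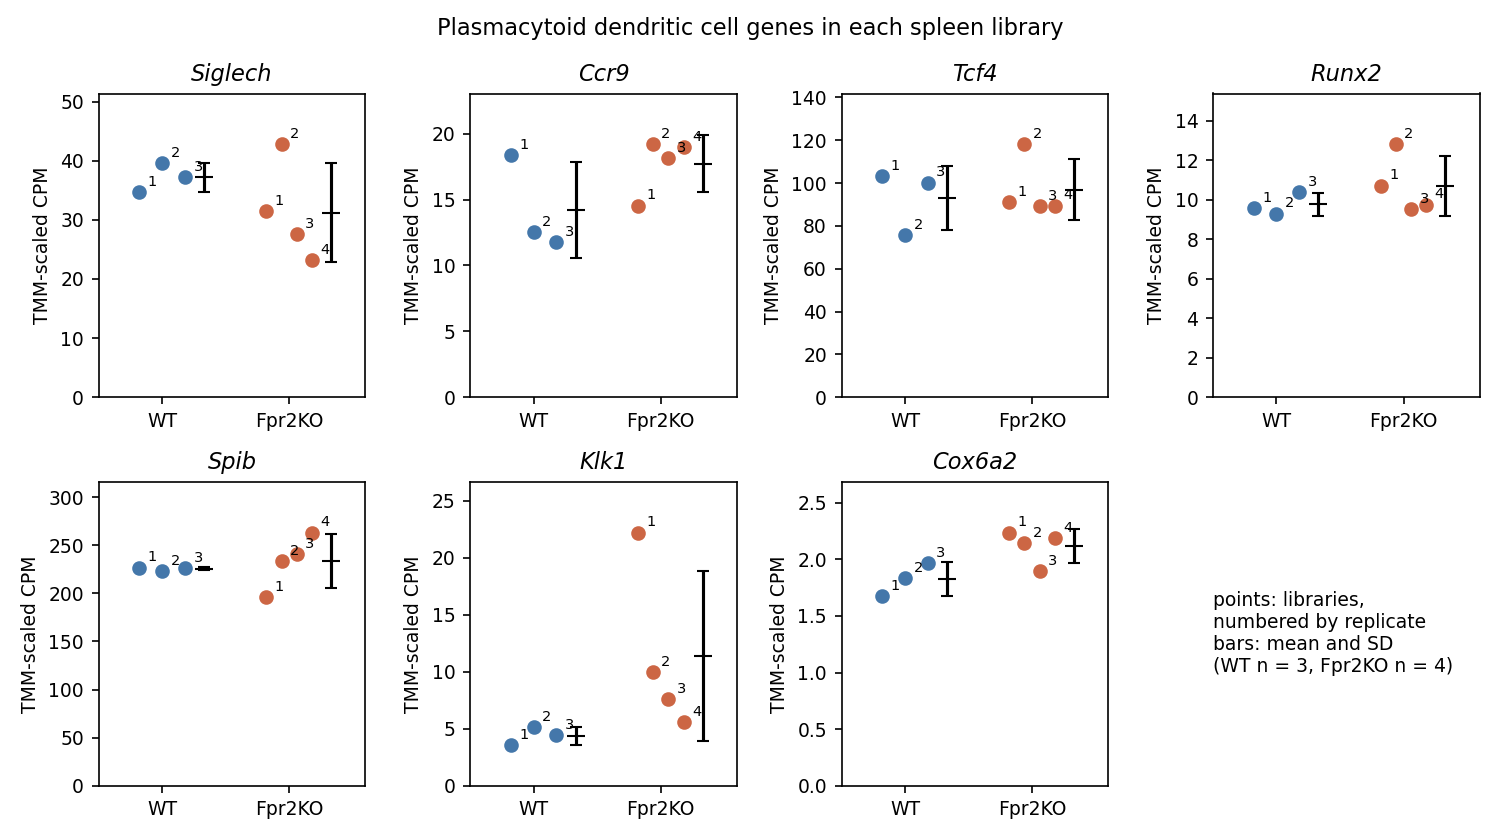
TMM-scaled CPM of each of the 7 genes in the 3 WT and 4 Fpr2KO libraries, numbered by replicate, with the mean and SD of each group beside the points. Klk1 is the only gene for which all Fpr2KO points lie above all WT points, and its value of 22.2 in replicate 1 stands well above the rest.

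Siglech (chromosome 7, 55768178 to 55778925, plus strand, GRCm38) had 34.7, 39.6 and 37.2 CPM in WT replicates 1 to 3. In Fpr2KO replicates 1 to 4 it had 31.4, 42.8, 27.5 and 23.2 CPM. Fpr2KO replicates 1, 3 and 4 were thus below every WT library, while replicate 2 was above them all. Means were 37.2 ± 2.5 (SD, n = 3) in WT and 31.2 ± 8.43 (n = 4) in Fpr2KO, and the log2 fold change of -0.25 (SE 0.19, 95% interval -0.67 to 0.17) did not pass (edgeR adjusted p = 1.00; exact permutation p = 0.286). The spread within Fpr2KO, a coefficient of variation of 27.0%, was wider than the 6.72% in WT and than the 4.2% that counting alone gives at this depth. Leaving out Fpr2KO replicate 2 moved the log2 fold change to -0.44 (edgeR adjusted p = 0.868), and leaving out Fpr2KO replicate 4 moved it to -0.13 (edgeR adjusted p = 0.999).

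Ccr9 (chromosome 9, 123678439 to 123784330, plus strand), the receptor for the gut and thymus chemokine Ccl25, leaned the other way. It had 18.4, 12.5 and 11.8 CPM in WT and 14.5, 19.2, 18.1 and 19 in Fpr2KO. WT replicate 1 lay among the Fpr2KO libraries and the other WT libraries lay below all of them. The log2 fold change was 0.32 (SE 0.17, interval -0.07 to 0.71; edgeR adjusted p = 1.00; exact permutation p = 0.200), and it was 0.55 without WT replicate 1 (edgeR adjusted p = 0.689) and 0.20 without WT replicate 3. T cell markers, which belong beside Ccr9 because naive CD8 T cells can carry the receptor, summed to between 805 and 1014 CPM in WT and to between 712 and 1034 in Fpr2KO. Their part in the Ccr9 values was not tested. Exons of an antisense gene, AC165425.1, cover 18.8% of the annotated Ccr9 exon bases. The ligand gene Ccl25 was low in the spleens, with a log2 fold change of -0.19.

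Among the transcription factor genes, Tcf4 (chromosome 18, 69343356 to 69689079, plus strand) had 103, 75.8 and 100.2 CPM in WT. Its Fpr2KO values were 91.0, 118, 89.3 and 89.4 CPM. The lowest value was in WT replicate 2 and the highest in Fpr2KO replicate 2, and the groups overlapped throughout. Its log2 fold change of 0.06 (SE 0.14, interval -0.25 to 0.37; exact permutation p = 0.771) turned to -0.05 without Fpr2KO replicate 2 and to -0.07 without WT replicate 2, so no direction can be given. Endothelial and stromal markers, of cells that also express Tcf4, summed to 672 ± 61.3 CPM in the WT and 687 ± 40.0 CPM in the Fpr2KO libraries.

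Runx2 (chromosome 17, 44495987 to 44814797, minus strand) was among the lower genes in CPM. WT libraries had 9.58, 9.31 and 10.4 CPM, and Fpr2KO libraries had 10.7, 12.8, 9.54 and 9.75. Again the highest value belonged to Fpr2KO replicate 2. The log2 fold change was 0.13 (SE 0.15, interval -0.19 to 0.46; exact permutation p = 0.429) and fell to -0.01 without Fpr2KO replicates 1 and 2. Bone and osteoblast genes, the other known setting of Runx2, were close to absent: Ibsp and Col10a1 had no read in any library, and Alpl, which other cells also express, made up most of the 6.17 to 12.4 CPM of that list. The antisense gene Runx2os1 overlaps 5.87% of the annotated Runx2 exon bases, and the strand setting of the counting is not given in the sources used here.

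Spib (chromosome 7, 44525993 to 44532071, minus strand) was the most abundant of the 7. The WT libraries were nearly equal, at 227, 224 and 227 CPM, a coefficient of variation of 0.825% against 1.6% from counting alone. The Fpr2KO libraries spread more widely, at 196, 234, 241 and 263 CPM, with replicate 1 below and the other replicates above WT. Means were 226 ± 1.86 (SD) for WT and 234 ± 27.8 for Fpr2KO, with a log2 fold change of 0.05 (SE 0.10, interval -0.17 to 0.27; edgeR adjusted p = 1.00; exact permutation p = 0.600). B cells, the main other source of Spib, were summed over 10 markers including Ms4a1 and Cd79b: 4039 ± 113 CPM in WT and 4010 ± 213 in Fpr2KO. Fpr2KO replicate 1 was lowest on this sum as well, with 3725 CPM. The part of B cells in the Spib values was not tested.

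Klk1 (chromosome 7, 44225360 to 44229618, plus strand), a tissue kallikrein that cleaves kininogen, showed the greatest difference of the 7. It had 3.55, 5.11 and 4.43 CPM in WT and 22.2, 9.98, 7.58 and 5.58 in Fpr2KO. Every Fpr2KO library was above every WT library, by a wide margin in replicate 1 and a narrow one in replicate 4. Relative to the WT mean, Fpr2KO replicates 1 to 4 were 5.08, 2.29, 1.74 and 1.28 times as high. The log2 fold change of 1.37 (SE 0.50, interval 0.17 to 2.57; unadjusted p = 0.0305) did not pass over all genes (edgeR adjusted p = 0.950), nor with DESeq2 (1.38, adjusted p = 0.0993). An exact permutation of the mean CPM gave p = 0.114, where 0.0286 is the smallest possible.

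Pancreatic acinar transcripts were high in the 2 libraries with the most Klk1, a gene that pancreas also expresses. The 20 acinar genes, among them the elastase gene Cela1 and the carboxypeptidase gene Cpb1, summed to 34.8, 51.1 and 26.4 CPM in WT and to 1119, 620 and then 43.2 and 41.6 in Fpr2KO replicates 1 to 4. All 20 were higher in both Fpr2KO replicates 1 and 2 than in any of the other libraries. Without Fpr2KO replicate 1 the Klk1 log2 fold change was 0.83 (edgeR adjusted p = 0.818). Without replicates 1 and 2 together it was 0.59 (edgeR adjusted p = 1.00), from 7.58 and 5.58 CPM against at most 5.11 in WT. WT replicate 2 had a higher acinar sum than Fpr2KO replicates 3 and 4 (51.1 against 43.2 and 41.6 CPM) and less Klk1 (5.11 against 7.58 and 5.58). Most of the sum in these libraries was Cela1 (45.3 against 35.5 and 32.6 CPM), while Cpb1 had 0.197 against 0 and 0.313. The sum there is thus largely the level of Cela1. The part of acinar RNA in the Klk1 values was not tested. Siglech was 31.4 and 42.8 CPM in Fpr2KO replicates 1 and 2 and 27.5 and 23.2 in replicates 3 and 4. The WT libraries, with low acinar sums, had 34.7 to 39.6 CPM, above Fpr2KO replicate 1. Without Fpr2KO replicates 1 and 2 the Siglech log2 fold change was -0.55 (edgeR unadjusted p = 0.00335, edgeR adjusted p = 1.00). That fit keeps the 2 Fpr2KO libraries with the lowest Siglech.

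**Figure D2:**
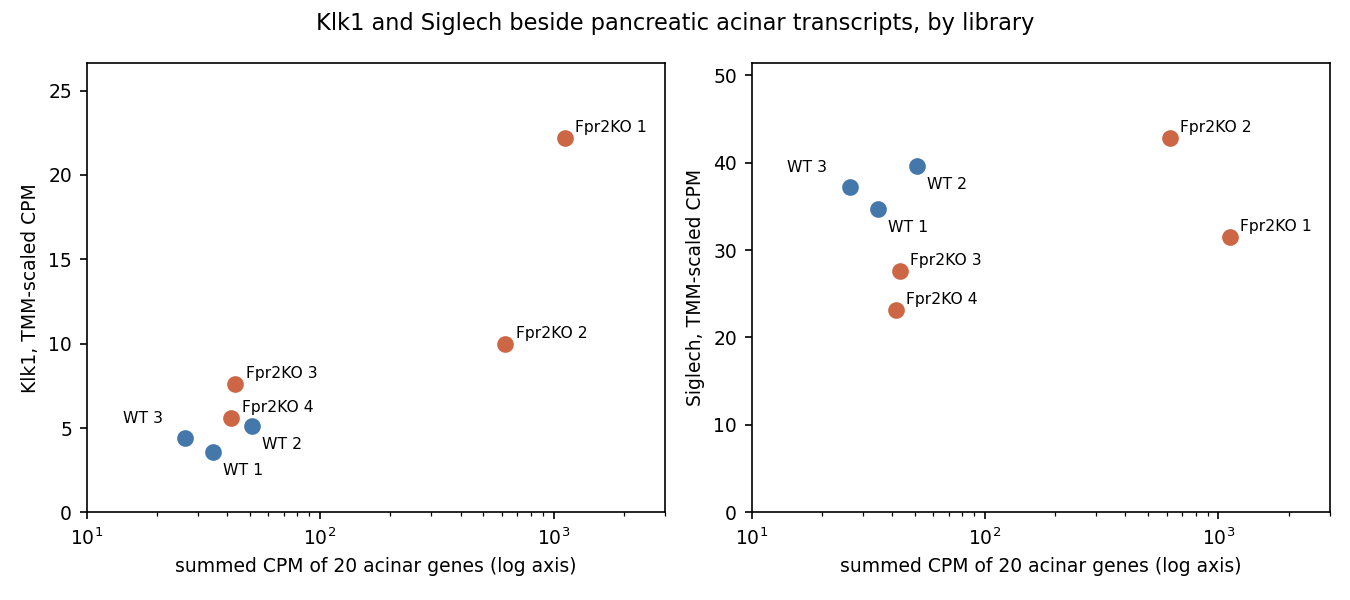
Klk1 (left) and Siglech (right), in TMM-scaled CPM, against the summed CPM of 20 pancreatic acinar genes on a log axis, with 1 point per library (blue WT, red Fpr2KO). Fpr2KO replicates 1 and 2 lie far to the right, at 1119 and 620 CPM, and hold the 2 highest Klk1 values, 22.2 and 9.98.

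Cox6a2 (chromosome 7, 128205435 to 128206387, minus strand), a heart and muscle type subunit of cytochrome c oxidase that pDCs also express, had only 25 to 42 reads per library. In CPM it had 1.68, 1.83 and 1.97 in WT and 2.24, 2.15, 1.90 and 2.19 in Fpr2KO. Fpr2KO replicate 3 lay within the WT range and the other Fpr2KO libraries above it. The coefficients of variation, 8.05% and 7.19%, were smaller than the 17.2% that counting gives at such depth, and the log2 fold change of 0.21 (SE 0.22, interval -0.27 to 0.70; exact permutation p = 0.0857) did not pass. Striated muscle genes summed to 101 ± 25.1 CPM in WT and 82.0 ± 13.6 in Fpr2KO, most of it from Des, the desmin gene that smooth muscle shares (89.3 ± 25.9 and 69.8 ± 11.8 CPM). Next came Tnni2, at 4.79 ± 0.780 and 4.94 ± 0.401 CPM. Of the 17 genes, 12 were under 1 CPM in each library, and the heart myosin gene Myh6 and the myoglobin gene Mb had no read. The part of muscle in the Cox6a2 values was not tested. The gene lies inside Itgad, an integrin gene on the opposite strand at 196 ± 17.6 CPM in WT and 206 ± 21.2 in Fpr2KO, whose exons cover 10.3% of the Cox6a2 exon bases. With the strand setting unknown, reads of the 2 genes cannot be told apart there.

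Levels between genes were set side by side per kilobase of merged exons. In WT, Spib stood at 78.7 ± 0.649 CPM per kb (SD, n = 3) and Siglech at 11 ± 0.738. Klk1 (4.05 ± 0.726), Tcf4 (3.40 ± 0.549) and Cox6a2 (2.69 ± 0.216) followed, and ranges of neighbours in that order overlapped. Ccr9 (1.39 ± 0.352) and Runx2 (1.10 ± 0.0644) were lowest and overlapped as well. Taking the longest coding transcript as length placed Tcf4 next after Siglech, at 10.8 ± 1.75 CPM per kb against 16.2 ± 1.09. Merged exons of Tcf4 span 27382 bases and its longest coding transcript 8577. On that length Tcf4 no longer overlapped Klk1 (4.58 ± 0.819). Ccr9 (2.735 ± 0.696) then stood just above Cox6a2 (2.69 ± 0.216), with overlapping ranges, so the order of the lower genes depends on the length used.

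Fpr2KO replicate 2 held the highest value of 4 of the 7 genes, Siglech, Ccr9, Tcf4 and Runx2, and of the T cell sum, but not of Spib, Klk1 or Cox6a2. The ratio of Spib to Siglech counts within a library, which no scaling can alter, was 6.55, 5.64 and 6.09 in WT and 6.25, 5.46, 8.75 and 11.4 in Fpr2KO. Fpr2KO replicates 3 and 4 therefore held more Spib per Siglech read than any WT library, and replicates 1 and 2 did not.

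**Figure D3:**
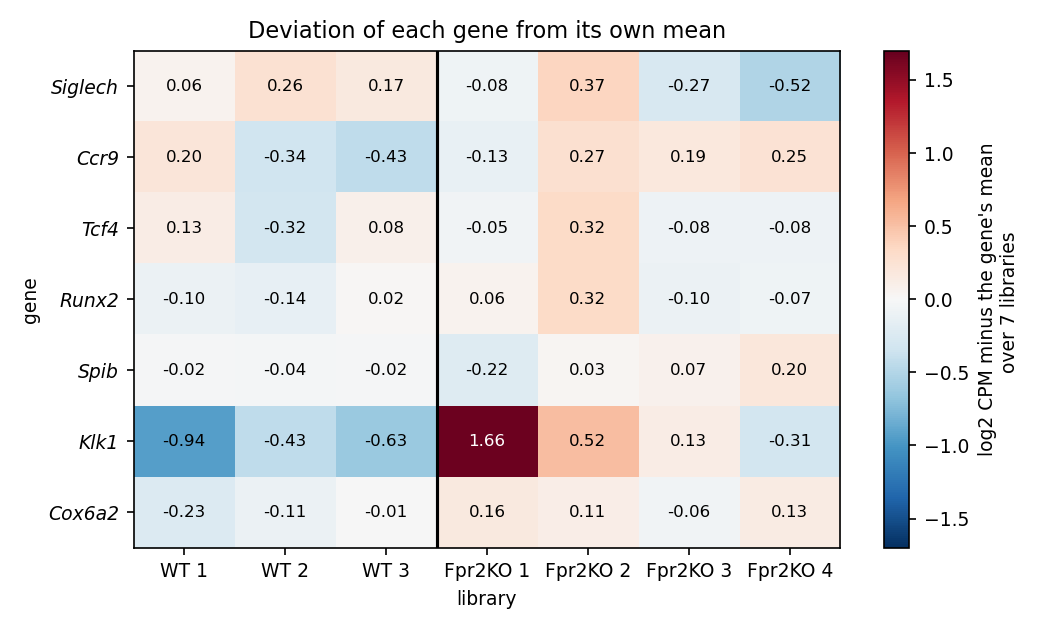
Log2 CPM of each gene minus its mean over the 7 libraries, with WT left and Fpr2KO right of the line. Klk1 runs from -0.94 in WT replicate 1 to 1.66 in Fpr2KO replicate 1, and the lowest Siglech value, -0.52, is in Fpr2KO replicate 4.

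Genes whose log2 CPM followed that of Siglech most closely over the 7 libraries, out of 12740 ranked, were Tmem14a (Pearson r = 0.97), the coagulation factor gene F5 (0.95), Cd84 (0.95), the macrophage phosphatidylserine receptor gene Timd4 (0.94), Ctbs (0.94) and Cptp (0.94). They were chosen for this likeness, so r has no test, and with 7 libraries many genes will run close to any pattern. None of the other 6 members was among them. The nearest was Runx2, with r = 0.47, at rank 1224, and Ccr9 (-0.39) and Spib (-0.45) ran opposite to Siglech.

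**Figure D4:**
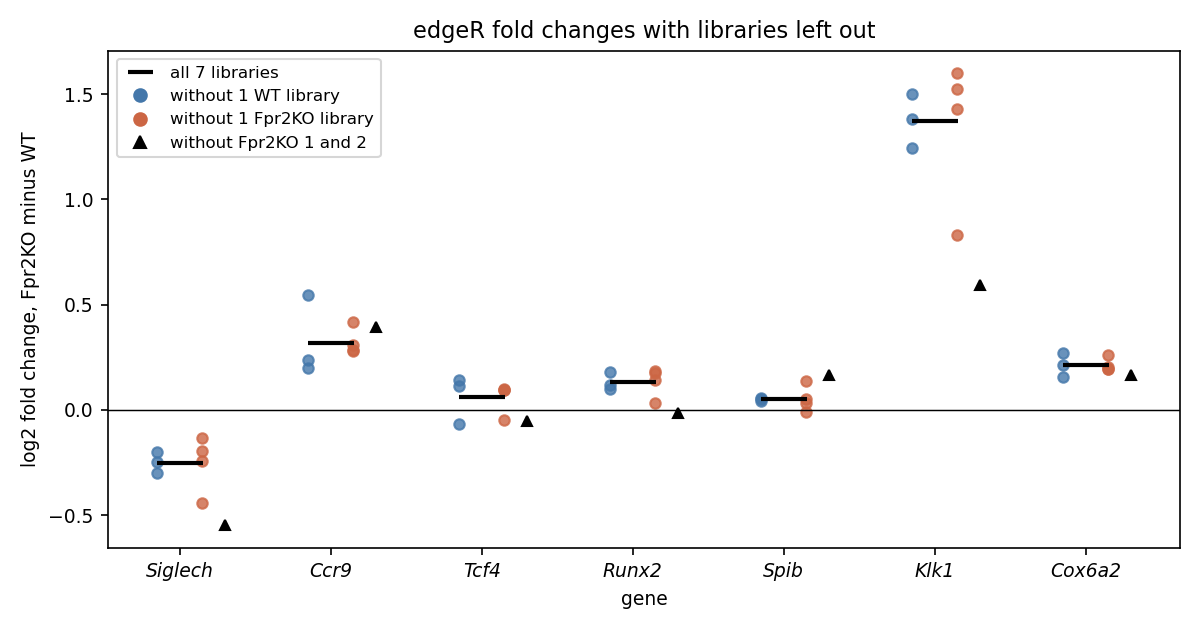
edgeR log2 fold changes (Fpr2KO minus WT) of the 7 genes with all libraries (bar), without each library in turn (blue and red points) and without Fpr2KO replicates 1 and 2 (triangles). Klk1 ranges from 0.59 to 1.6, Siglech stays below 0 and Tcf4, Runx2 and Spib cross it.

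Other pDC marker genes were read gene by gene from the same fit, with no test of the list as a whole. All 18 were tested, 0 passed edgeR's test in either direction, 7 were fitted higher and 11 lower, and log2 fold changes had a median of -0.01. Bst2, the tetherin gene recognised by pDC antibodies, stood at 97.8 ± 17.5 CPM in the 3 WT and 102 ± 7.61 CPM in the 4 Fpr2KO libraries. Pld4, an endosomal exonuclease gene, had 170 ± 13.1 and 179 ± 17.7 CPM. These marker lists were drawn up from textbook knowledge, with earlier results of these data known, and hold genes that other spleen cells share.

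Lair1, a collagen-binding inhibitory receptor of many leukocytes, stood apart in that list without passing. Its values were 66.0, 72.5 and 72.1 CPM in WT and 87.1, 92.9, 91.6 and 86.0 in Fpr2KO, so that all Fpr2KO libraries were above all WT libraries. It was the 1 of the 18 without overlap, against 5.91% of all genes. The log2 fold change was 0.35 (SE 0.08, interval 0.17 to 0.52, edgeR adjusted p = 0.479; DESeq2 adjusted p = 0.0618). Ly6c2, a surface protein gene of pDCs, monocytes and T cells, leaned lower, from 177 ± 37.1 to 123 ± 10.1 CPM (log2 fold change -0.52, SE 0.14, edgeR adjusted p = 0.597). Mctp2 (-0.12) and Sla2 (0.12) had the next smallest p.

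Partners and opponents of the pDC transcription factors included 18 tested genes, of which 0 passed edgeR's test. Of these, 13 were fitted higher and 5 lower, against 7819 and 8270 of all genes. The median was 0.04 on the log2 scale. Irf8, needed for dendritic cell development, had 361 ± 31.9 CPM in WT and 366 ± 46.0 in Fpr2KO. Bcl11a, an activator of Tcf4 in pDCs, had 79.2 ± 4.00 and 86.0 ± 4.33 CPM (log2 fold change 0.12). Id2, the E protein inhibitor that opposes the pDC fate, stood at 144 ± 10.9 and 144 ± 7.16 CPM (interval of the log2 fold change -0.18 to 0.19). Zeb2, which represses Id2, had a log2 fold change of 0.31 (edgeR adjusted p = 0.988), and Cbfa2t3 one of 0.16.

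Nfil3 and Id1 were the members of that list with the smallest p. Groups did not overlap for these 2 of the 18, both lower, against 3.18% of all genes with Fpr2KO lower. Nfil3, a basic leucine zipper repressor, had 12.9, 9.11 and 8.99 CPM in WT and 5.65, 5.69, 7.41 and 6.31 in Fpr2KO. No library of Fpr2KO reached the lowest WT value, and the log2 fold change was -0.72 (SE 0.18, interval -1.13 to -0.32, edgeR adjusted p = 0.546; DESeq2 adjusted p = 0.105). Id1, a further E protein inhibitor, had 22.3, 21.8 and 16.6 CPM in WT and 16.2, 10.2, 10.9 and 15.3 in Fpr2KO, with the groups just apart (log2 fold change -0.62, SE 0.19, edgeR adjusted p = 0.753). Neutrophil markers were lower in the same libraries (7 of 10 with an unadjusted p under 0.05, all lower, against 3.07% lower among all genes, and 0 passing edgeR's adjusted threshold), and their part in the Nfil3 and Id1 values was not tested.

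None of the 15 tested genes of the endosomal sensing pathway passed edgeR's test. An unadjusted p under 0.05 was reached by 0 of them, against 4.98% of all genes, a share at which 0 of 15 is unremarkable. Their log2 fold changes lay between -0.19 and 0.20, with a median of 0.01. Tlr7, the receptor for single-stranded RNA, averaged 97.0 ± 10.5 CPM over WT and 89.5 ± 8.81 over Fpr2KO libraries. Tlr9, the receptor for unmethylated CpG DNA, had 50.4 ± 2.71 and 48.9 ± 3.92 CPM. Unc93b1, which carries these receptors to endosomes, had a log2 fold change of -0.10, Irf5 one of 0.20, Myd88 one of -0.19 and Pld3 one of -0.15. Irf7, the interferon master regulator of pDCs, stood at 68.3 ± 8.28 and 71.5 ± 16.4 CPM.

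Type I and III interferon genes had almost no reads in either genotype. Of 17 such ligand genes, 16 had no read in any library, and Ifnb1 had 1 read, in Fpr2KO replicate 1. A count of 0 allows a level of up to between 0.156 and 0.201 CPM in 1 library, taking 3 counts as the floor. The receptor chains Ifnar1 (log2 fold change -0.04) and Ifnar2 (-0.01) were measured and did not pass.

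**Figure D5:**
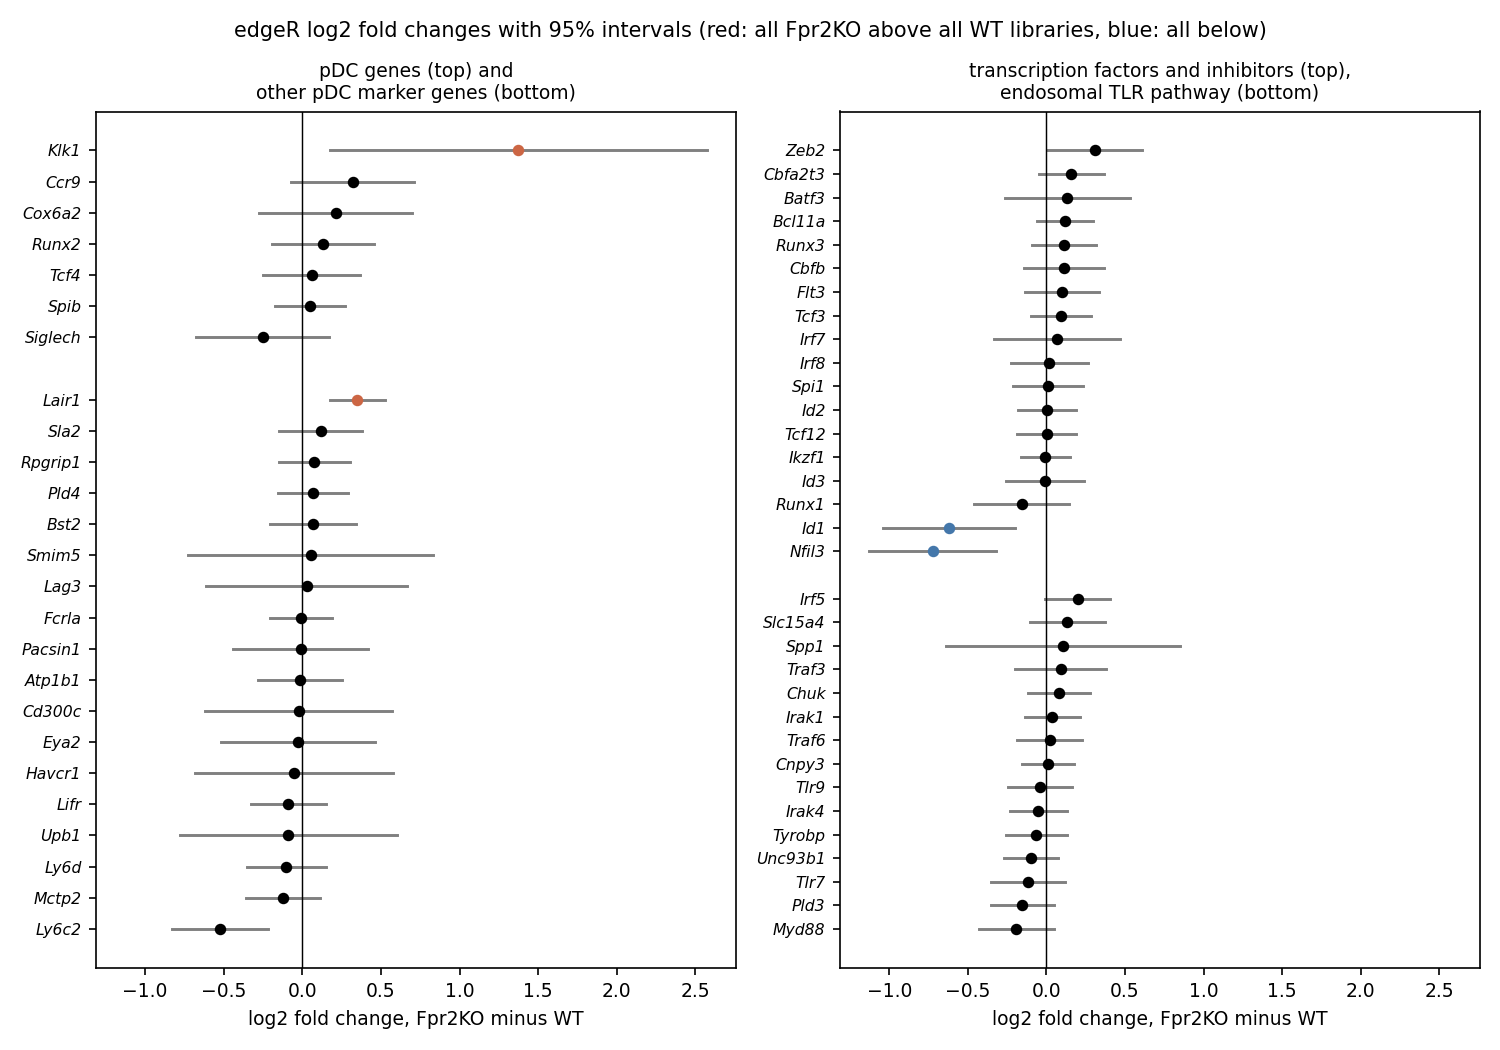
edgeR log2 fold changes with 95% intervals for the 7 genes and for 3 fixed lists of the pDC programme, with red points where all Fpr2KO libraries lie above all WT libraries and blue points where all lie below. Most intervals span 0; among those that do not are Klk1, Lair1, Ly6c2, Nfil3, Id1 and Zeb2, none of which passed over all genes.

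Relatives of the members in other cells were listed as a reference. Of 24 such genes, which include the Klk1b copies, 12 had enough reads to test and 0 passed edgeR's test. The fitted level was higher for 3 and lower for 9, against 7819 and 8270 of all genes. The sialic acid-binding lectin genes Siglec1 of macrophages (-0.35, SE 0.11) and Siglecf of eosinophils (-0.56, SE 0.23) had the smallest p, followed by Cd33 (-0.77, SE 0.31) and the B cell gene Cd22 (-0.08). Groups did not overlap for 1 of the 12, Siglec1, against 5.91% of all genes. Spic, an Ets factor gene of red pulp macrophages, was at 0.05 and Cox6a1, the isoform of Cox6a2 found in most tissues, at -0.04. Markers of conventional dendritic cells, which share a precursor with pDCs, summed to 680 ± 87.7 CPM in WT and 716 ± 72.5 in Fpr2KO. Most of the sum came from Sirpa (323 ± 40.4 and 328 ± 31.4 CPM) and from Cd8a (102 ± 5.59 and 106 ± 17.1), which is also on the T cell list. Log2 fold changes of the 10 genes ran from -0.46 to 0.44, with 8 fitted higher and 2 lower, and 0 passed edgeR's test.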

How the data were processed

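The deposited data were the authors' raw counts of reads for each Ensembl gene, in a single table whose columns are the 7 spleen libraries, matched to samples by library name. Per the submitters' processing notes, the tools were FastQC 0.10.1 and HTSeq 0.10.0, and the build was mm10 (GRCm38); the aligner, strand setting, read length and annotation release are not given in the sources used here. Symbols and positions came from GENCODE M21, matched for 52133 of 55414 gene IDs, which hold 99.8% of counts. Promoters came from RefSeq (GRCm38.p6).

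Counts were fitted with edgeR 4.0.16 in R 4.3.3 (TMM, default filterByExpr, robust quasi-likelihood F test) over 16089 genes, with Benjamini-Hochberg adjustment over all of them and a threshold of 0.05. All 7 pDC genes passed the filter. CPM are counts scaled by TMM library sizes. Intervals of log2 fold changes are 95% and use the quasi-likelihood degrees of freedom. Exact two-sided permutation tests of the mean CPM (35 arrangements of the labels) were run for the 7 genes and every other listed gene, are unadjusted, and are given for the 7. Floors and counting spreads cover counting error only. The labels do not say that replicates are separate animals, so the spread behind the p-values may be partly technical. Simulated counts with known changes were used to test the edgeR script.

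Named genes were the 7 members, up to 4 genes of smallest p per pDC programme list, the 2 most abundant genes of marker lists used here, and the 6 genes most like Siglech by Pearson r (log2 CPM, prior count 2, mean of at least 1 CPM, without immunoglobulin, T cell receptor, pseudogene, Gm or Rik names). Other genes were picked for their known role. Members and lists were chosen with earlier results of these data known. Other fits used DESeq2 1.42.0, or voom with quality weights (limma 3.58.1); scaling by RLE, by upper quartile or on totals that omit haemoglobin, immunoglobulin and mitochondrial genes; no filter, or at least 1 CPM in 3 libraries; no robust estimation; the replicate number as a block; each library left out, and both Fpr2KO replicates 1 and 2 left out.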

Additional observations from a re-analysis of the deposited data

Results flagged for a closer look

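Within the group of 4 Fpr2KO libraries, 60 genes of the pDC programme were checked for a library far from the other 3. Chance alone flags about 1 of 20 groups. Only the genes named here were flagged, a share no larger than chance gives. Tcf4 had 118 CPM in Fpr2KO replicate 2 against 89.3 to 91.0 in the others. Tcf12, a further E protein gene, had 79.1 CPM in Fpr2KO replicate 4 against 90.9 to 93.2. Batf3, a conventional dendritic cell factor gene, had 17.1 CPM in Fpr2KO replicate 4 against 13.6 to 13.7.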

How the results depend on the processing

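None of the 7 pDC genes passed in any of 17 alternative fits. Siglech stayed lower (-0.55 to -0.13), and Ccr9 (0.20 to 0.55), Klk1 (0.59 to 1.6) and Cox6a2 (0.15 to 0.27) stayed higher in all of them. Tcf4 ranged from -0.068 to 0.14 with 1 library left out and was -0.053 without both Fpr2KO replicates 1 and 2, where Runx2 was -0.013. Spib ranged from -0.012 to 0.14 with 1 library left out. The number of genes called over the whole table was 6, against 56 with DESeq2, 21 without a low count filter and 5 to 15 with 1 library left out (10 without WT replicate 1, 15 without WT replicate 3); the cause was not tested. Deviations of same-numbered libraries from their group means had correlations of 0.08, -0.43 and -0.07. Unlike-numbered ones reached 0.44 (WT replicate 2 with Fpr2KO replicate 1, and WT replicate 3 with Fpr2KO replicate 2). With so few libraries behind each mean, these values cannot show whether the numbers pair the samples. A replicate block gave 2 calls and put Spib at -0.018. Depth limits Cox6a2 most, with 25 to 42 reads per library.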

Other observations

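Gp2, a glycoprotein gene of pancreatic acinar cells and of antigen-sampling gut epithelium, had 2.28, 1.97 and 2.34 CPM in WT. It had 14.1, 7.99, 3.73 and 5.79 in Fpr2KO, so that Fpr2KO replicates 3 and 4 also lay above WT. The acinar sum in those 2 libraries was 43.2 and 41.6 CPM. Groups did not overlap for 1 of the 5 tested acinar genes, Gp2, against 2.73% of all genes with Fpr2KO higher. Klk1 was higher in Fpr2KO replicate 3 than in replicate 4 and Gp2 the other way round, and a relation between the 2 genes was not tested. The edgeR estimate for Gp2 was 1.84 on the log2 scale, SE 0.44, and missed the threshold (adjusted p = 0.576). Cela1, the most abundant acinar gene of the list, had 28.8, 45.3 and 21.4 CPM in WT and 35.5 and 32.6 in Fpr2KO replicates 3 and 4, within the WT range. The remaining tested acinar genes were mixed. Zg16 and Ctrl had 2.25 and 1.07 CPM in Fpr2KO replicate 3, above every WT library (at most 1.97 and 0.852). In Fpr2KO replicate 4 they had 1.41 and 0.469, not above WT. Prss2 had 0.533 and 0.261 in these libraries, against up to 0.786 in WT.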
